A study of Mus musculus with 36 samples.

Results

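Within the oocytes labelled Drp1_WT, those of tubes 11 to 15 carried less Dnm1l mRNA than the others, and they were set against tubes 1 to 8 and 10 of the same label. The first set holds 5 oocytes, 2 from mouse 3 (tubes 11 and 12) and 3 from mouse 4 (tubes 13 to 15). The other set holds 9 oocytes, 3 each from mouse 1 (tubes 1 to 3), mouse 2 (tubes 4 to 6) and mouse 3 (tubes 7, 8 and 10), so mouse 3 has oocytes on both sides. Together they are 14 of 36 single-oocyte libraries. The tube number in the title decided membership, and this split was chosen because Dnm1l is low in tubes 11 to 15. The remaining libraries are 4 Drp1_WT oocytes of mouse 5 (tubes 27 to 30), which stayed out of the comparison, and 18 Drp1_KO oocytes of mice a to d. Every oocyte was at the germinal vesicle stage and was lysed and sequenced alone. The labels give the genotype as Drp1_WT or Drp1_KO and the mouse. The sources used here do not give the strain, the age of the mice, the deleted exons or what drives the deletion, nor whether the tubes of a mouse were collected together.

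Dnm1l encodes Drp1, a dynamin-family GTPase that is recruited from the cytosol to the outer mitochondrial membrane by receptors such as Mff and Fis1, where it forms rings that constrict and divide the organelle. It also acts in the division of peroxisomes. The germinal vesicle oocyte is arrested in meiotic prophase and, once fully grown, transcribes little, so its mRNA is largely a store built up during growth and used after meiosis resumes.

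Dnm1l (ENSMUSG00000022789, chromosome 16, 16312230 to 16358959 on GRCm38) stood at 134, 116, 151, 118 and 156 CPM (counts scaled to a total of 1e6 in each oocyte) in tubes 11 to 15, in tube order. In the other 9 oocytes it ran from 254.5 to 311.5 CPM with a median of 286 CPM. Each of the 5 lay below each of the 9, as the choice of tubes requires. The nearest values on the 2 sides of the gap were 156 CPM in tube 15 and 254.5 CPM in tube 10. The set means were 134.7 ± 18.2 CPM (SD, n = 5 oocytes) and 287 ± 21.7 CPM (SD, n = 9 oocytes), a ratio of 2.13. Because these values defined the sets, they carry no test.

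The gap ran through mouse 3. Its tubes 7, 8 and 10 held 286, 275 and 254.5 CPM of Dnm1l, and its tubes 11 and 12 held 134 and 116 CPM, a ratio of means of 2.18. Mouse 4 held 151, 118 and 156 CPM. In mouse 5, outside the comparison, tubes 27 to 30 ranged from 234.5 to 322.5 CPM and overlapped with the 9. The Drp1_KO oocytes ranged from 144 to 274 CPM, and 17 of the 18 lay above the highest of Drp1_WT tubes 11 to 15. The 5 libraries labelled Drp1_WT thus held less Dnm1l than most of those labelled Drp1_KO, and a count over the whole gene does not show whether an exon is missing.

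**Figure D1:**
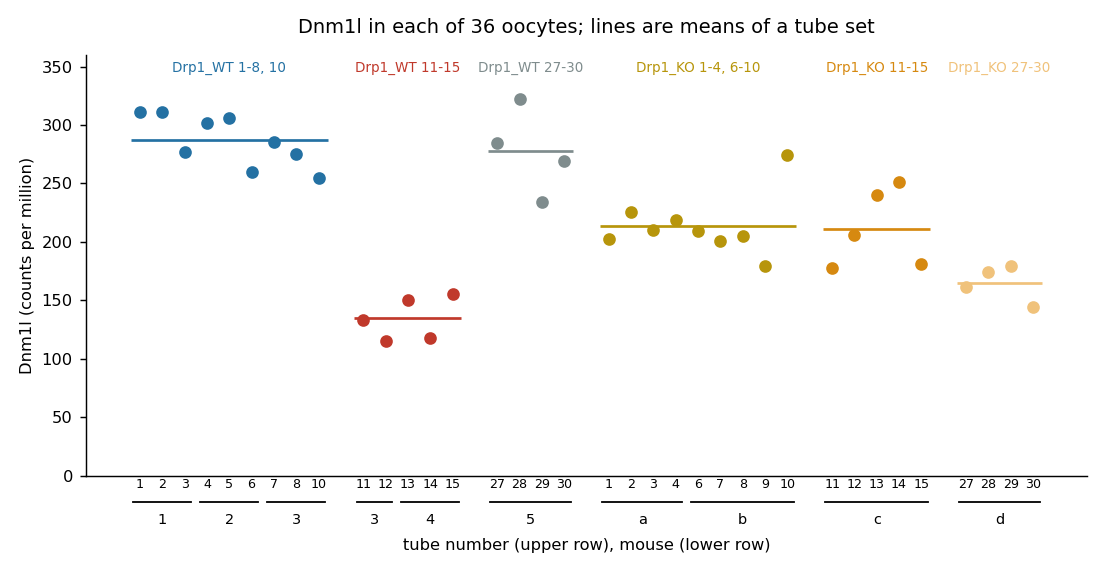
Dnm1l in CPM (vertical axis) for each oocyte, ordered by tube number within a tube set, with the mouse below. Points are oocytes and lines are means of a set. Tubes 11 to 15 of the Drp1_WT label lie between 116 and 156 CPM, on both sides of the border between mouse 3 and mouse 4.

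No gene beside Dnm1l passed the test. Within 1 Mb of it, 20 other genes were tested and 0 had an unadjusted p under 0.05 (edgeR), beside 11.1% of all tested genes. The nearest are Yars2, the mitochondrial tyrosyl-tRNA synthetase, at a log2 fold change of 0.08 (SE 0.38), Pkp2, a desmosomal plakophilin, at -0.11 (SE 0.41), and Fgd4, an exchange factor for Cdc42, at 0.11 (SE 0.25). All fold changes here and below are tubes 11 to 15 against tubes 1 to 10.

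The short stretches before the start sites of 4 genes are shown because they form 2 pairs of neighbours on chromosome 7 that are described below. The cytochrome P450 genes Cyp2b9 and Cyp2a12 were both lower in tubes 11 to 15. Lipt2 and Coa4 lie within 0.381 Mb of each other and moved in opposite directions. Each line gives the 150 bases before the RefSeq start on the gene's strand (GRCm38.p6), 5′ to 3′, and capitals mark the letters TATAAA. Cyp2a12 is read from chr7:27028940-27029089, Cyp2b9 from chr7:26173259-26173408, Lipt2 from chr7:100159127-100159276 and Coa4 from chr7:100536950-100537099, all on the plus strand.
Cyp2a12: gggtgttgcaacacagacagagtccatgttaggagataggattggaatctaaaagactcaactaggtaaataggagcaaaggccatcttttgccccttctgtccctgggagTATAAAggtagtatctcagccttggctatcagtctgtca
Cyp2b9: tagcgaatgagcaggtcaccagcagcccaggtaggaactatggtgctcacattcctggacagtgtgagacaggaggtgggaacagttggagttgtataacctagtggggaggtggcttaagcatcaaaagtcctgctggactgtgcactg
Lipt2: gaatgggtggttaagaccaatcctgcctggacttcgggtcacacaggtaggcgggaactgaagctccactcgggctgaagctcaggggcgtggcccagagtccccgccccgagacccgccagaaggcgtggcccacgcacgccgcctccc
Coa4: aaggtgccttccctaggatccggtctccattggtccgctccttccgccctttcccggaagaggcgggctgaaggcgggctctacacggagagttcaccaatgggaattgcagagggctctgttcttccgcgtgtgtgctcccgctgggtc

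TATAAA, searched on both strands, occurs in the window of Cyp2a12, with its first base 39 bases before the start, and in 7.57% of all 32851 promoter windows of this length in the RefSeq table. The window of Cyp2a12 holds 45.3% G and C, that of Cyp2b9 52.7%, that of Coa4 62% and that of Lipt2 67.3%. A match is a description of the letters only.

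The 14 oocytes had between 4699541 and 7085866 counts and 13599 to 14659 detected genes. All 16 oocyte markers were detected, at 32236 to 43996 CPM summed in tubes 11 to 15 and 31763 to 38339 CPM in the other 9. Granulosa and cumulus markers (21 of 25 detected, with Ptx3, Tnfaip6, Areg and Ereg at 0 in all 14) summed to 109 to 168 against 114 to 165 CPM. Markers of theca, stroma and endothelium (15 of 16 detected, Cdh5 at 0) summed to 45.9 to 84.2 against 33.5 to 81.6 CPM, and those of immune cells, blood and epithelium (15 of 18 detected, with Adgre1, Tyrobp and Hbb-bt at 0) to 31.2 to 81.7 against 22.1 to 66.2 CPM. The ranges of the 2 sets overlapped for each list.

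The 5 oocytes did not form a uniform set across the transcriptome. Dissimilarity between 2 oocytes was taken as 1 minus Spearman's correlation of log2(CPM+1), across genes, after each was thinned to the same total. Tubes 11, 12 and 13 lay 0.0214 to 0.0225 apart, the smallest values among all 91 pairs (median 0.0375), although tubes 11 and 12 come from mouse 3 and tube 13 from mouse 4. The nearest oocyte to tube 11 and to tube 12 was tube 13. Tube 11 lay 0.0297 on average from the oocytes of mouse 4 but 0.0489 from tubes 7, 8 and 10 of its own mouse, and tube 12 lay 0.0294 and 0.0476 away.

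Tubes 14 and 15 of mouse 4 stood elsewhere. Tube 13 lay 0.0423 from tube 14 and 0.0306 from tube 15 of its own mouse, further than from either low oocyte of mouse 3. Tube 15 was nearest to tube 1 of mouse 1, at 0.0260. Within the other set, tube 6 of mouse 2 stood apart, at 0.0420 to 0.0703 from the other 13 oocytes. The low-Dnm1l set thus contains 3 oocytes that are close to one another and 2 that are less so. Some results are given with and without the 3. Counts of list members are mostly given only with them, and may rest on these 3 oocytes.

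**Figure D2:**
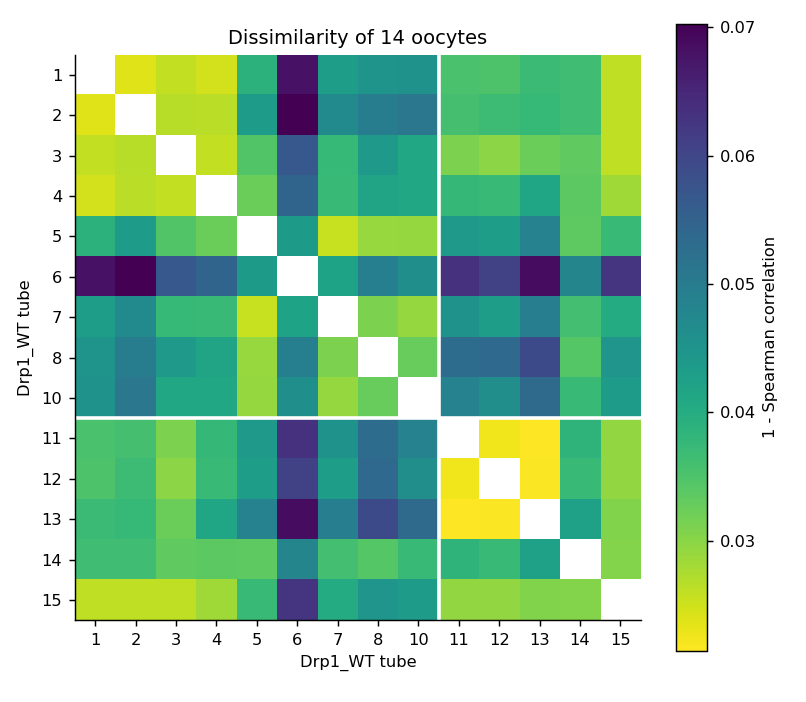
Dissimilarity of each pair of the 14 Drp1_WT oocytes (1 minus Spearman's correlation, colour scale), with white lines between tubes 1 to 10 and tubes 11 to 15. Tubes 11, 12 and 13 form the palest block, 0.0214 to 0.0225 apart, and tube 6 the darkest row.

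Genes other than Dnm1l were compared with edgeR's quasi-likelihood test on counts summed per mouse and tube set, 3 sums (mouse 1, mouse 2, mouse 3 tubes 7, 8 and 10) against 2 (mouse 3 tubes 11 and 12, mouse 4). The split was drawn from one gene in these same libraries, so these p-values set each gene's difference against the spread of the 5 sums and do not support the split itself. Both sums of mouse 3 come from 1 animal. Of 12661 genes, 36 were higher (0.284%) and 14 were lower (0.111%) in tubes 11 to 15 at a Benjamini-Hochberg adjusted p under 0.05. At an unadjusted p under 0.05, 682 were higher (5.39%) and 720 were lower (5.69%). In single oocytes, 79 genes had all 5 above all 9 (0.624%) and 33 had all 5 below all 9 (0.261%). DESeq2 on the same sums called 111 higher and 68 lower, with all 50 of the edgeR genes among them.

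Read oocyte by oocyte, 38 of the 50 genes showed 1 of 2 patterns. In 12 of the 36 higher genes and 8 of the 14 lower genes, each of the 5 oocytes lay outside the range of the 9. In 17 of the 36 higher genes and 1 of the 14 lower genes, tubes 11, 12 and 13 lay beyond that range in the direction of the call while tubes 14 and 15 did not. The remaining 7 higher and 5 lower genes showed neither pattern. The share of all tested genes with the second pattern was not computed, so its counts have no background. Among genes with a mean of at least 10 CPM, 4 of 15 higher and 5 of 8 lower genes separated all 5 oocytes. These 9 are described first.

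Lipt2, the octanoyltransferase that starts the lipoylation of mitochondrial enzymes, was higher (ENSMUSG00000030725, chromosome 7, 100159277 to 100161365). It stood at 27.4, 46.9, 46.1, 39.2 and 32.4 CPM in tubes 11 to 15. In the 9 it ran from 5.81 to 14.3 CPM (median 8.25). The log2 fold change was 2.00 (SE 0.22, adjusted p = 0.00134 by edgeR), and all 5 oocytes lay clear of the others.

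Top3a, a topoisomerase of nuclei and mitochondria that separates linked DNA, was higher as well (chromosome 11, 60740058 to 60777365). Tubes 11 to 15 held 65.8, 53.8, 65.5, 23.6 and 53.1 CPM. The 9 held 5.11 to 16.2 CPM (median 6.64). The log2 fold change was 2.42 (SE 0.28, adjusted p = 0.00202 by edgeR), with tube 14 the closest to the other set. Outside the comparison, Top3a ran from 9.72 to 32.7 CPM in Drp1_WT tubes 27 to 30 and from 1.89 to 34.2 CPM in Drp1_KO oocytes other than tube 10. Both ranges took in the level of tube 14.

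Pdpn, podoplanin, a mucin-type membrane glycoprotein, stood at 87.1, 121, 116, 104 and 96.6 CPM in tubes 11 to 15. The 9 ran from 23.3 to 78.5 CPM (median 39.6), with the highest in tube 6. Its log2 fold change was 1.31 (SE 0.18, adjusted p = 0.00854 by edgeR). Rttn, rotatin, a protein of centrioles, stood at 105.5, 145, 141, 133 and 124 CPM against 13.7 to 72.7 CPM (median 34.2), a log2 fold change of 1.76 (SE 0.29, adjusted p = 0.0246 by edgeR). The 9 were themselves spread for Rttn: tubes 5 to 8 held 13.7 to 17.9 CPM, and tubes 1, 3 and 10 held 51.1 to 72.7 CPM. Outside the comparison, Rttn stood at 55.6 to 174 CPM (median 103) in Drp1_KO oocytes other than tube 10. In Drp1_WT tubes 27 to 30 it ran from 8.13 to 133.5 CPM. High Rttn thus occurred under both labels outside tubes 11 to 15.

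Cyp2a12, a cytochrome P450 of the 2A subfamily, was the clearest of the lower genes (ENSMUSG00000060407, chromosome 7, 27029081 to 27037375). It stood at 1.19, 1.09, 0.181, 0.803 and 2.23 CPM in tubes 11 to 15. In the 9 it ran from 13.6 to 25.4 CPM (median 15.2). The log2 fold change was -3.97 (SE 0.32, adjusted p = 2.27e-04 by edgeR), and the groups did not come near each other.

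Coa4, an assembly factor of cytochrome c oxidase in the mitochondrial intermembrane space, was lower. It stood at 17.04, 15.2, 18.1, 20.4 and 13.6 CPM in tubes 11 to 15 and 35.9 to 61.9 CPM (median 44.5) in the 9, a log2 fold change of -1.59 (SE 0.23, adjusted p = 0.0134 by edgeR). Gm13103, a predicted gene of chromosome 4, was the most abundant of the 50, at 640.3, 736.5, 666, 765 and 565 CPM against 1072 to 2034 CPM (median 1694). Its log2 fold change was -1.33 (SE 0.24, adjusted p = 0.0334 by edgeR). Within the 9, tubes 1 to 4 held 1072 to 1256.5 CPM of it and tubes 5 to 10 held 1694 to 2034 CPM.

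Cyth1, cytohesin 1, an exchange factor for ARF GTPases, stood at 67.7, 62.5, 44.6, 72.9 and 61.5 CPM against 88.7 to 221 CPM (median 122), a log2 fold change of -1.23 (SE 0.21, adjusted p = 0.0278 by edgeR). Caln1, the calcium-binding protein calneuron 1, had the tightest values, 93.7, 91.97, 84.9, 94.1 and 101 CPM against 151 to 184 CPM (median 165), with a log2 fold change of -0.95 (SE 0.18, adjusted p = 0.0416 by edgeR). For both, each oocyte of tubes 11 to 15 lay below each of the 9. Outside the comparison, Cyth1 ran from 33.5 to 201 CPM in Drp1_WT tubes 27 to 30 and from 51.2 to 145 CPM in Drp1_KO oocytes other than tube 10. Caln1 ran from 155 to 213 CPM and from 96.7 to 215 CPM, in the same order. Low Cyth1 thus occurred under both labels outside tubes 11 to 15.

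These 9 genes kept their direction in each of 18 other analyses, but not all kept their call. Cyp2a12 passed in 18 of 18, Lipt2 and Top3a in 17, Pdpn in 14, Coa4 in 13, Rttn and Gm13103 in 11, and Cyth1 and Caln1 in 10. In a fit added once the values were known, tubes 11 to 13 were left out, so that tubes 14 and 15 formed the only low sum. That lone sum is assumed to vary like the other 3, which supply all of the spread. There edgeR called 2 genes higher and 2 lower: Zfp990, Cast, Cyp2a12 and Pxdn. Lipt2 then had a log2 fold change of 1.99 and Coa4 one of -1.48, neither past the threshold.

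Genes of lower abundance showed the same separation and were picked out here after their values were seen. Zfp990, a zinc finger gene of chromosome 4, stood at 18.6, 25.8, 23.8, 22.0 and 10.4 CPM in tubes 11 to 15 and at 0.171 to 2.45 CPM (median 0.423) in the 9 (log2 4.63, SE 0.43, adjusted p = 4.83e-04 by edgeR). Cast, calpastatin, the inhibitor of calpain proteases, stood at 20.8, 17.6, 26.7, 14.3 and 19.6 CPM against 0.638 to 4.33 CPM (log2 3.70, SE 0.35, adjusted p = 4.83e-04 by edgeR). Ccdc38, a coiled-coil protein, stood at 16.0 to 22.2 CPM against 1.08 to 6.98 CPM. For all 3, the ranges of the sets did not overlap.

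On the lower side, Cyp2b9, a cytochrome P450 near Cyp2a12, had 0 counts in tubes 11 to 14 and 0.797 CPM in tube 15, against 1.97 to 15.8 CPM in the 9. Epha7, an ephrin receptor, stood at 0.321 to 0.797 CPM against 1.5 to 14.2 CPM. Hist3h2ba, a histone H2B gene, stood at 1.09 to 4.26 CPM against 5.49 to 14.2 CPM (adjusted p = 0.0276 by edgeR). In Drp1_WT tubes 27 to 30, Cyp2b9 stood at 0 to 4.47 CPM, Epha7 at 0.625 to 1.92 CPM and Hist3h2ba at 1.75 to 3.035 CPM. Drp1_KO oocytes other than tube 10 held 0 to 7.42, 0.867 to 10.2 and 0.552 to 14.6 CPM, in the same order. Low levels thus also occurred outside tubes 11 to 15. These genes rest on few counts, and a level under 1 CPM in a library of this depth is about 6 counts or fewer.

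The other pattern was a rise in tubes 11, 12 and 13 alone among the 14 oocytes compared. Sdcbp2, syntenin-2, a PDZ-domain adaptor, stood at 56.4, 59.5 and 56.8 CPM in these tubes, 6.42 and 6.54 CPM in tubes 14 and 15, and 0.818 to 16.5 CPM in the 9 (log2 2.53, SE 0.40, adjusted p = 0.0194 by edgeR). Zfp707, a zinc finger gene, stood at 37.1, 37.4 and 63.5 CPM in tubes 11 to 13 but at 1.12 and 2.23 CPM in tubes 14 and 15, with at most 5.49 CPM in the 9. Hacd3, a dehydratase of very long chain fatty acid elongation, stood at 51.8, 48.2 and 57 CPM, then 8.03 and 13.4 CPM, with 5.74 to 16.1 CPM in the 9. In these 3 genes tubes 14 and 15 lay within the range of the 9, so the calls rest on 3 oocytes.

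Mitochondrial and secretory genes were among those high in tubes 11 to 13. Uqcrc1, a core subunit of respiratory complex III, stood at 28.6 to 37.9 CPM in these 3 oocytes, 8.67 and 7.65 CPM in tubes 14 and 15 and 2.55 to 11.5 CPM in the 9 (adjusted p = 0.0373 by edgeR). Lias, the lipoyl synthase that acts after Lipt2, stood at 11.4 to 16.6 CPM, then 0.642 and 0.797 CPM, against 0.179 to 2.92 CPM. Spcs3, a subunit of the signal peptidase, stood at 27.1 to 35.6 CPM, then 5.30 and 6.22 CPM, against 3.15 to 5.64 CPM (adjusted p = 0.0154 by edgeR). Trmt10c, part of mitochondrial RNase P, stood at 55.1 to 57.7 CPM in tubes 11 to 13, 25.4 CPM in tube 14 and 29.5 CPM in tube 15, against 9.0 to 27 CPM (adjusted p = 0.0442 by edgeR), so tube 14 overlapped with the 9.

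This second pattern also appeared in libraries outside the comparison. Sdcbp2 stood at 27.3, 43 and 40.2 CPM in tubes 28, 29 and 30 of mouse 5 but at 0.675 CPM in its tube 27, and reached 52.6 CPM among Drp1_KO tubes 1 to 9 and 61.6 CPM among Drp1_KO tubes 11 to 15. Over 9 genes chosen for being higher in tubes 11 to 13, the mean of log2(CPM+1) was 5.22, 5.23 and 5.54 in those tubes. It was 5.21 in Drp1_KO tube 6, 4.71 in Drp1_KO tube 13 and 3.95 to 4.47 in Drp1_WT tubes 28 to 30, against 2.32 to 3.35 in the 9. High levels of these genes thus occurred in single oocytes of several mice and of both labels.

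**Figure D3:**
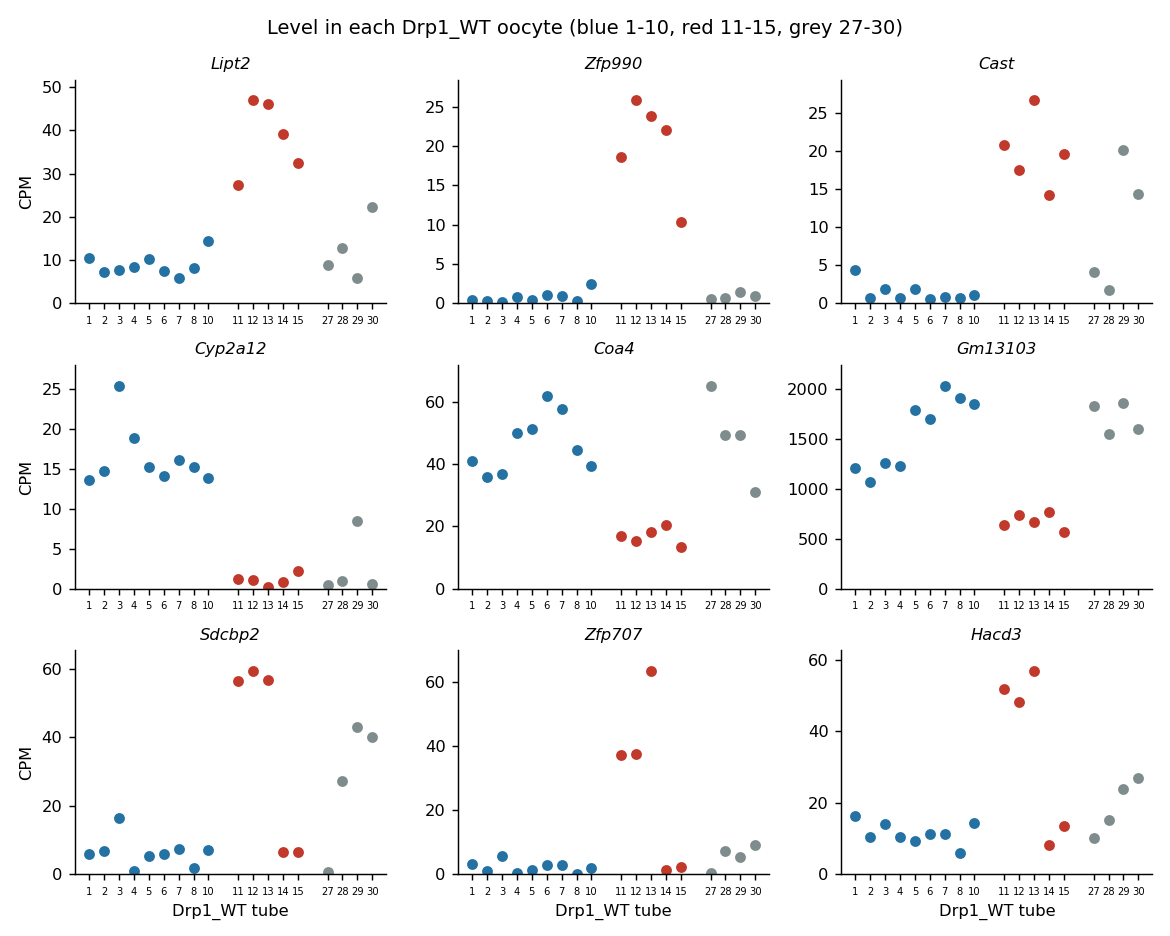
Level in CPM (vertical axes, each from 0) in each of 18 Drp1_WT oocytes by tube number. In 6 genes all 5 oocytes of tubes 11 to 15 differ from the 9. In the bottom row are 3 genes high in tubes 11 to 13 but not in tubes 14, 15 or 1 to 10. Sdcbp2 is also high in tubes 28 to 30. Tubes 14 and 15 sit with tubes 11 to 13 in the upper rows and with tubes 1 to 10 in the bottom row.

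Several called genes lie close together. Within 2 Mb of another, 17 of the 50 fell into 6 stretches, and chromosome 4 held 9 of the 50. The same shares over all tested genes were not computed, so these counts have no background. The longest stretch runs from 143267431 to 148130698 on chromosome 4 and holds Pdpn, Gm13088, Gm13103, Zfp990, Zfp981 and Draxin, which encodes a secreted axon guidance protein. It contains families of zinc finger and Pramef genes, and 48 of its genes were tested. Of these, 11 were higher and 14 were lower at an unadjusted p under 0.05, which is 52.1% of them, against 11.1% of all 12661 genes. The stretch was picked from the calls themselves, so that share has no test.

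Neighbours in this stretch went in both directions. Among 16 tested genes with Zfp names, 4 were higher and 6 were lower at an unadjusted p under 0.05. Among 5 with Pramef names 0 were higher and 4 were lower, and among 8 with Gm names 3 were higher and 3 lower. These counts go by name only. Whether the Gm genes belong to the zinc finger or Pramef families was not checked, so the counts do not give the direction of a whole family. Zfp933 stood at 42.4 to 58.1 CPM against 12.9 to 25.8 CPM (log2 1.17, SE 0.25, adjusted p = 0.0752 by edgeR), and Zfp534 at 13.4 to 17.7 CPM against 21.6 to 50.4 CPM (log2 -1.24, SE 0.29, adjusted p = 0.119 by edgeR). How the counting treated reads that match several members of the zinc finger or Pramef families is not known here, and its part was not tested. All 5 oocytes lay above all 9 in 9 of the 48 genes and below them in 4.

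**Figure D4:**
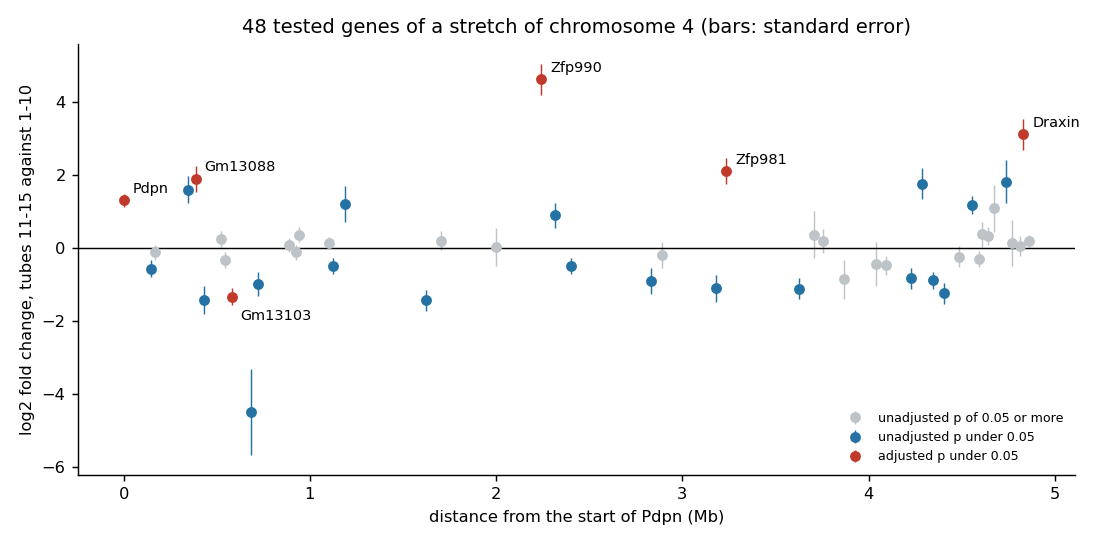
Log2 fold change (vertical axis, bars are standard errors) of 48 tested genes along a stretch of chromosome 4, by distance from the start of Pdpn in Mb. Red points passed an adjusted p of 0.05 (5 higher, 1 lower), blue points an unadjusted p of 0.05, and both lie on both sides of 0.

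On chromosome 7 the P450 genes Cyp2b9, Cyp2g1 and Cyp2a12 lie within 0.864 Mb and were lower together. Of 9 genes tested there, 0 were higher and 4 were lower at an unadjusted p under 0.05, beside 5.39% and 5.69% of all genes. The remaining one of the 4 was Cyp2b23 at 9.72 to 16.5 CPM against 11.6 to 24.9 CPM (adjusted p = 0.379 by edgeR). This stretch was also picked from the calls. Further along the chromosome, Lipt2 was higher and Coa4 lower, and Ppme1, a phosphatase methylesterase between them, stood at 98.8 to 121 CPM against 42.3 to 77.9 CPM (log2 0.69, SE 0.19, adjusted p = 0.183 by edgeR). By their names, Cyp2b9 and Cyp2b23 are of 1 subfamily, while Cyp2g1 and Cyp2a12 are each of another. Whether reads were shared among these genes was not tested.

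By the labels, mouse 3 allowed the 2 sets to be compared inside 1 animal, without a test. Whether the mouse label of tubes 11 and 12 is right cannot be told from the counts, and both lay nearest to tube 13 of mouse 4. Among 7423 genes with a mean of at least 10 CPM in it, 236 were at least 2-fold higher in tubes 11 and 12 with no overlap (3.18%) and 173 were lower (2.33%). Mouse 3 is also part of the test above. Lipt2 had a log2 ratio of 1.74 within mouse 3, Cyp2a12 of -3.46, Coa4 of -1.78, Pdpn of 1.27, Gm13103 of -1.73 and Rttn of 1.96. These ratios are not independent of the fold changes above and were not tested.

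A set of genes taken without mouse 3 was then read in it. Between mouse 4 and mice 1 and 2, 25 of 7464 genes were at least 2-fold apart with no overlap of oocytes (0.335%), 13 higher and 12 lower in mouse 4. In mouse 3, 24 of these 25 (96.0%) went the same way in tubes 11 and 12 against tubes 7, 8 and 10, and 13 did so by at least 2-fold with no overlap. Over all 7464 genes, 65.2% went the same way. The 13 include Cyp2a12, Coa4, Cyth1, Gm13103, Pdpn, Rttn, Lipt2 and Top3a. The other 5 are Dhrs3, a retinal reductase, 1700001L19Rik, Wee1, the kinase that holds CDK1 inactive, Eno1b and Trim68. Dhrs3 stood at 5.44 to 10.4 CPM against 12.6 to 35.7 CPM and Wee1 at 11.3 to 28.1 CPM against 4.94 to 10.5 CPM. The comparison shares the choice of tubes with the one above and is given as a description.

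Drp1_KO tubes 11 to 15, all from mouse c, carry the same tube numbers but were not used to choose the split. Against Drp1_KO tubes 1 to 9 (mice a and b, without tube 10, whose library stands apart with 56112 CPM of mitochondrial genome transcripts), edgeR called 1 of 13527 genes (0.00739%), and 333 had an unadjusted p under 0.05. The gene was Fgf7, a fibroblast growth factor, with a log2 fold change of -6.37 (SE 0.69, adjusted p = 0.00628). Dnm1l stood at 178 to 251 CPM in Drp1_KO tubes 11 to 15 and at 179 to 225 CPM in tubes 1 to 9. DESeq2 called 7 higher and 7 lower in the same comparison. Mouse c gives a single sum, assumed to vary like the other sums of the fit, so these p-values hold no replicate of that side.

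Some genes of the Drp1_WT difference showed it in mouse c as well. Among the 14 lower genes, 12 had the same direction in Drp1_KO. Among the 36 higher genes only 14 did, so most of the higher genes did not share the direction. The share of all genes with the same direction was not computed. Lipt2 stood at 35.4 to 43.4 CPM in Drp1_KO tubes 11 to 15 and at 7.44 to 26.8 CPM in tubes 1 to 9. Ccdc38 stood at 16.2 to 30.4 against 2.08 to 8.31 CPM, and Coa4 at 17.01 to 28 against 28.3 to 51.9 CPM. None of the 3 passed over all genes in Drp1_KO, although the oocytes of the 2 tube sets did not overlap for any of them.

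Cyp2a12 stood at 0.788 to 2.52 CPM in mouse c, like Drp1_WT tubes 11 to 15, but Drp1_KO tubes 1 to 9 ran from 0.378 to 19.5 CPM and so overlapped. It was also low, at 0.405 to 8.46 CPM, in Drp1_WT tubes 27 to 30. Pxdn, peroxidasin, was at 0 to 0.315 CPM in mouse c and 0 to 21.0 CPM in tubes 1 to 9. Low Cyp2a12 thus occurred in oocytes of both labels outside tubes 11 to 15.

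Other genes showed the difference in the Drp1_WT libraries and no such pattern in mouse c. Zfp990 stood at 0.158 to 1.51 CPM in Drp1_KO tubes 11 to 15 and 0.31 to 1.89 CPM in tubes 1 to 9. Cast stood at 1.26 to 5.98 against 0.189 to 4.01 CPM, and in mouse 5 at 4.18, 1.75, 20.1 and 14.4 CPM. Pdpn stood at 36.2 to 65.4 against 42.8 to 73 CPM, and Gm13103 at 1354 to 1871 against 1323 to 1720.5 CPM. The difference between labels was tested for each gene, and edgeR called 0 of 13527 (0.0%), with 718 at an unadjusted p under 0.05 and 14 higher and 5 lower by DESeq2. The smallest adjusted p was 0.153, shared by Zfp990 (log2 4.84), Cast (log2 3.72) and Fgf7 (log2 6.08).

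Mfhas1 and Eri1, neighbours on chromosome 8 that are high in Drp1_KO oocytes, overlapped between the low-Dnm1l tubes and the 9. Mfhas1, a leucine-rich repeat protein, stood at 2.39, 3.88, 1.27, 3.37 and 1.75 CPM in tubes 11 to 15 and at 1.79 to 5.47 CPM in the 9, against 20.4 to 39.0 CPM in Drp1_KO tubes 1 to 9 and 11 to 15. Eri1, an exonuclease that trims histone mRNA ends, stood at 46.9 to 61.7 CPM in tubes 11 to 15, 35.2 to 60.4 CPM in the 9 and at least 72.4 CPM in those Drp1_KO oocytes. The 5 tubes did not overlap with these Drp1_KO oocytes for either gene. In Drp1_WT tubes 27 to 30 the ranges were wider, 1.08 to 20.8 CPM for Mfhas1 and 32.5 to 83.7 CPM for Eri1. The log2 fold change between the 2 Drp1_WT sets was -0.07 for Mfhas1 and 0.21 for Eri1, and neither passed.

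Other genes of mitochondrial division did not differ past the threshold. For the lists of this paragraph, the shares over all genes at an unadjusted p under 0.05 were 5.39% higher and 5.69% lower. Counts of 0 or 1 in lists this short cannot be told apart from those shares. Of 17 tested fission genes besides Dnm1l, 0 were higher and 0 lower at an unadjusted p under 0.05, with a median log2 fold change of 0.05 beside -0.01 over all 12661 genes. Those with the smallest p were Prkaca, a catalytic subunit of protein kinase A, at 5.14 to 23.9 against 4.66 to 14.1 CPM, Slc25a46 and Mtfr2. Among 15 genes of fusion and cristae the median was -0.02, and Apoo, a subunit of the MICOS complex, was the 1 gene at an unadjusted p under 0.05, at 13.4 to 20.9 against 16.3 to 55.3 CPM (log2 -1.07, SE 0.28, adjusted p = 0.170 by edgeR). Among 20 genes of peroxisomes, which Drp1 also divides, the median was 0.09 and Pex5, the import receptor, was the 1 with an unadjusted p under 0.05 (log2 0.95, SE 0.39, adjusted p = 0.388 by edgeR).

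Many subunits of abundant complexes had lower values in tubes 11 to 15, without passing over all genes. At an unadjusted p under 0.05, 5.69% of all genes were lower and 5.39% higher. Of 80 tested subunits of the respiratory chain and ATP synthase, 35 were lower and 1 was higher at an unadjusted p under 0.05 (median log2 -0.43), and the higher one, Uqcrc1, was the only one called. Of 80 cytosolic ribosomal proteins, 31 were lower and 0 higher (median -0.38), and of 77 mitochondrial ribosomal proteins 14 were lower and 2 higher (median -0.21). Ndufa3, a subunit of complex I, stood at 18.1 to 30.7 against 24.6 to 79.8 CPM and Rpl41 at 68.6 to 103 against 80.3 to 293 CPM, both with overlapping oocytes. Without tubes 11 to 13, the numbers lower became 1, 1 and 0, and the medians -0.27, -0.32 and -0.19. In that fit, which has 1 low sum, the counts over all genes also dropped, from 720 to 257 lower and from 682 to 110 higher.

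Over all genes, the fold change varied with transcript length. Across 12650 genes with an annotated length, the first of 4 length classes (123 to 2663 bases of exon) had a median log2 fold change of -0.16, and the last (6865 bases or more) one of 0.06. Inside mouse 3 the same medians were -0.25 and 0.15. The Spearman correlation of fold change with exon length was 0.20 across genes, which are not independent replicates. The part of length in the list medians was not tested.

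Transcripts of the mitochondrial genome were also lower on average and varied widely. Of 9 tested, 3 were lower and 0 higher at an unadjusted p under 0.05 (median log2 -0.65, and -1.26 inside mouse 3). Over all genes, 5.69% were lower and 5.39% higher at that limit. Without tubes 11 to 13 the median was -0.05, with 0 lower and 0 higher. Their summed level was 2145, 2019, 1600, 4224 and 1954 CPM in tubes 11 to 15 and 1405 to 6688 CPM in the 9, so the sets overlapped. Means per sum differed by -947.5 CPM (exact permutation p = 0.6, n = 2 and 3 sums, 2-sided), and by -1759 CPM without mouse 1 or -340.1 CPM without tubes 7, 8 and 10 of mouse 3. With 5 sums the smallest p such a test can give is 0.2. Detected genes per oocyte differed by 291 (14254 against 13963, exact permutation p = 0.6), with 14552.5 in tubes 11 and 12 of mouse 3 and 13805 in its tubes 7, 8 and 10.

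Nuclear genes that maintain mitochondrial DNA had a median of 0.05 (24 tested, 4 higher and 1 lower at an unadjusted p under 0.05). All genes together had 5.39% higher and 5.69% lower at that limit. Gabpa, a transcription factor of nuclear mitochondrial genes, and Tfam, which packages mitochondrial DNA, had log2 fold changes of 1.58 (SE 0.45) and 0.80 (SE 0.24), with an adjusted p = 0.205 and 0.238 by edgeR. Tfam stood at 14.7 to 47.9 CPM against 10.4 to 21.3 CPM. Without tubes 11 to 13 the sign of both turned, to -0.82 and -0.19. Metabolic lists had medians near that of all genes, -0.01 for pyruvate oxidation and the TCA cycle (27 tested), 0.00 for glycolysis (24 tested) and 0.09 for lipid droplet and fatty acid oxidation genes (27 tested, 3 higher).

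Endoplasmic reticulum chaperones had the highest median of the 35 lists, 0.26, with 6 of 26 higher and 0 lower at an unadjusted p under 0.05 and 0 past the threshold over all genes. For the lists of this paragraph, the shares over all genes were 5.39% higher and 5.69% lower. Pdia6, a disulfide isomerase, stood at 233 to 662 against 214 to 401 CPM (log2 0.81, SE 0.17, adjusted p = 0.0636 by edgeR), and Hspa5, the chaperone BiP, at 116 to 448 against 74.3 to 258 CPM (log2 0.68, SE 0.18, adjusted p = 0.171). Without tubes 11 to 13 the median was 0.13, with 1 of 26 higher. The integrated stress response had a median of 0.06 (30 tested, 3 higher), with Atf4 at 57.8 to 207 against 41.4 to 145 CPM. Its median was 0.15 without tubes 11 to 13. Of antioxidant enzymes, 5 of 29 were lower and 1 higher (median -0.26), with Prdx6, Gpx1 and Sod1 among the lower ones. Leaving out tubes 11 to 13 moved this median to -0.14. Mitophagy and autophagy had a median of 0.07 (28 tested) and apoptosis and p53 targets -0.01 (26 tested).

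Lists of the oocyte's own programme had differences in both directions, and 1 of their tested members, a histone gene, passed over all genes. The called genes Gm13103 and Gm13088 of chromosome 4 are in none of these lists, which were matched by gene name. Of 12 oocyte secreted factors and their partners, 5 were lower and 1 was higher at an unadjusted p under 0.05, beside 5.69% lower and 5.39% higher over all genes. The 3 with the smallest p were Oosp3 (log2 -0.71), the receptor Kit (log2 0.51) and Inhba (log2 -1.20), with adjusted p between 0.371 and 0.407 by edgeR. Zona pellucida and egg surface genes had a median of 0.16 (10 tested, 3 higher): Zp2 stood at 2600 to 6683 against 2031 to 4243 CPM and Astl, ovastacin, at 126 to 850 against 92.0 to 457 CPM. Without tubes 11 to 13 the median of this list was -0.06. Maternal-effect genes had a median of -0.06 (32 tested, 2 higher), with Khdc3 at 189 to 354.5 against 91.9 to 234 CPM. Oocyte gene families, such as Nlrp and Pramef genes, had a median of -0.29 with 10 of 63 lower and 2 higher. Leaving out tubes 11 to 13 moved this median to -0.16. Meiotic cell cycle genes had a median of -0.04 (53 tested, 2 higher and 1 lower), led by Wee1 (log2 1.17, SE 0.25, adjusted p = 0.0778 by edgeR). Histone genes had a median of -0.30 (32 tested, 6 lower and 1 higher), with Hist3h2ba the 1 called. Their median was -0.10 without tubes 11 to 13.

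Genes that handle stored mRNA and proteins were counted in the same way, beside 5.39% higher and 5.69% lower over all genes. Maternal RNA storage and decay had a median of -0.01 (43 tested, 6 higher and 1 lower), with Pabpc1, a poly(A)-binding protein, at 5.46 to 18.9 against 2.42 to 9.69 CPM and Ddx6, a helicase of RNA granules, at 5.90 to 36.5 against 5.71 to 17.2 CPM. Splicing factors had a median of -0.05 with 8 higher and 9 lower of 99. In the proteasome list the median was -0.19 with 2 higher and 3 lower of 48. None of the members in these 3 lists passed over all genes. Without tubes 11 to 13 their medians were 0.06, 0.04 and -0.09, in the same order.

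**Figure D5:**
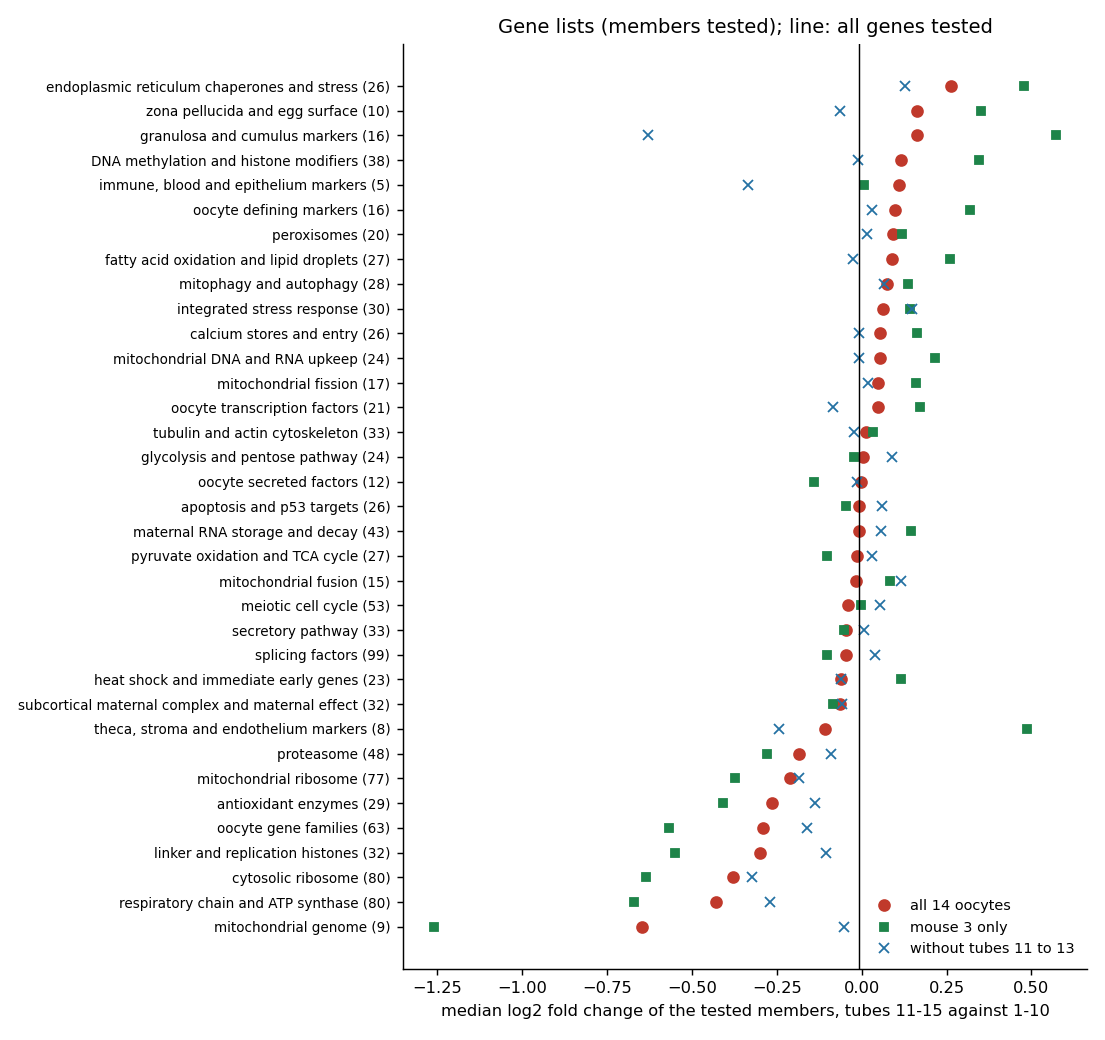
Median log2 fold change (horizontal axis) of the tested members of 35 gene lists, for all 14 oocytes, for mouse 3 alone and without tubes 11 to 13. The line marks the median of all genes, -0.01. The mitochondrial genome, respiratory chain and cytosolic ribosome lists lie furthest to the left and endoplasmic reticulum chaperones furthest to the right for all 14 oocytes, and the crosses lie closer to the line for these lists.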

How the data were processed

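Single germinal vesicle oocytes were lysed, amplified with a SMARTer kit and sequenced from Nextera XT libraries, per the labels' protocols. The authors deposited raw counts in 1 table that covers 36 oocytes and 21968 Ensembl genes. GRCm38, STAR, Picard, featureCounts and Subread 1.5.2 are listed, per the submitters' processing notes; how strand and shared reads were set is not known here. The method keeps no strand, so overlapping and antisense genes cannot be told apart, and without molecular identifiers PCR copies may count as reads. Gene IDs were matched to GENCODE M21 (21876 matched).

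Levels of single oocytes are CPM on each oocyte's total. Counts were summed per mouse and tube set and tested with edgeR 4.0.16 (TMM, filterByExpr, robust quasi-likelihood, Benjamini-Hochberg 0.05, 2-sided), with Dnm1l removed before adjustment because it chose the tubes. DESeq2 1.42.0 and limma 3.58.1 were alternatives. The Drp1_KO comparison and the difference between labels used 1 fit of 8 sums. The members and the gene lists were chosen with earlier results of these data known. Named genes are the called ones of at least 10 CPM whose oocytes do not overlap and the 3 of smallest p in a list; others were named after their values were seen. No pair of oocytes looked like repeat deposits of 1 library (chi-square over its degrees of freedom, lowest of 46 pairs, 5.47). The fit was tested on simulated data.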

Additional observations from a re-analysis of the deposited data

Results flagged for a closer look

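In 30 groups of oocytes (the sets of 5 and of 9, over 10 genes and 5 measures of a library) a gap test at the 95% level found 3 oocytes far from the rest of their set; by chance it finds about 1 in 20 groups. Pdpn stood at 78.5 CPM in tube 6 of mouse 2, above the other 8 oocytes of its set, which held at most 47.6 CPM. Cyp2a12 stood at 25.4 CPM in tube 3 of mouse 1, against at most 18.8 CPM in the other 8. Transcripts of the mitochondrial genome summed to 4224 CPM in tube 14 of mouse 4, against 1600 to 2145 CPM in tubes 11, 12, 13 and 15.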

How the results depend on the processing

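The counts of called genes depended on the analysis (main: 36 higher, 14 lower). DESeq2 gave 111 and 68, no filter 229 and 181, a mean of at least 10 CPM 5 and 2. Library totals alone gave 30 and 7, and moved the median of all genes to a log2 of 0.11. Limma-voom on single oocytes, which blocks on the mouse by an estimated correlation, gave 46 and 23, and 23 of these 69 were among the 50. Leaving out 1 sum at a time gave 5 to 868 higher and 2 to 1121 lower: 868 and 1121 without mouse 1, 6 and 2 without mouse 2, 5 and 3 without tubes 11 and 12 of mouse 3, and 32 and 5 without mouse 4. Added after seeing the data, leaving out tubes 11 to 13 gave 2 and 2, and leaving out tube 6 gave 15 and 4. The cause was not tested. No paired analysis was possible because the 2 Drp1_WT tube sets share no replicate number and only mouse 3 is on both sides, so a fixed mouse term uses up the residual degrees of freedom of the 5 sums.

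In Drp1_KO, DESeq2 gave 7 higher and 7 lower against 0 and 1, and leaving out 1 sum gave 0 to 7 higher and 1 to 7 lower. The difference between labels gave 14 and 5 with DESeq2, and 0 to 70 higher and 0 to 161 lower without 1 sum, with the highest counts without mouse 1. Inside mouse 3, a limit of 1.5-fold gave 963 higher and 976 lower. With a mean of at least 50 CPM, 100.0% of 4 genes set by mouse 4 went the same way in mouse 3. Without 1 sum, the difference in detected genes ranged from -7.89 to 589.6, after thinning from -38.2 to 421, and that in granulosa markers from -0.25 to 22.9 CPM.

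Of 1974 other values of 112 named genes, 24 changed sign. Mfhas1 became 0.063 with library totals, 0.15 without tubes 7, 8 and 10 and 0.16 without mouse 4, against -0.07 (lowest value without 1 sum -0.32), and Yy1 became -0.36 without mouse 3. Without tubes 11 to 13, log2 fold changes that were above 0 became -0.15 for Prkaca, -0.13 for Pex5, -0.82 for Gabpa, -0.19 for Tfam, -0.060 for Dgat1, -0.14 for Cd9, -0.15 for Kdm1b, -1.36 for Yy1, -0.34 for Ddx6, -0.24 for Sirt1, -0.24 for H2afz, -0.20 for Rbm5, -0.26 for Hsph1, -1.49 for Mcl1, -0.68 for Psmg2, -0.78 for Psmd13, -0.16 for Trpm7, -0.19 for Arf4, -0.068 for C1qb and -0.0067 for Ddx4.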
